A study of Mus musculus with 17 samples.

Results

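The mitochondrially encoded genes are the rows that the deposited mouse kidney table places on chromosome MT. They numbered 36 of 42794 genes, of which 13 were protein-coding, 2 were ribosomal RNA (rRNA) genes and 21 were transfer RNA (tRNA) genes. Of the 37 genes that GENCODE release M21 lists on this chromosome, mt-Tf is not analysed here. All 36 had the same coordinates and strand in the table and in that release, which uses the GRCm38 build.

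Mitochondria keep a small circular genome that is transcribed from both strands into long precursor RNAs. tRNAs lie between most rRNAs and mRNAs, and their excision by RNase P and RNase Z releases the RNAs on either side. The rRNAs form the core of the mitochondrial ribosome, and the mRNAs encode membrane subunits of respiratory complexes I, III and IV and of ATP synthase, on which the reabsorbing tubules of the kidney rely heavily.

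The 17 RNA-seq libraries were made from whole mouse kidney and fall into 3 groups by their titles. NC holds 4 libraries with the genotype WT. DKD_Vehicle holds 6 libraries whose genotype reads Ctr shRNA, and DKD_shRNA holds 7 libraries whose genotype reads Gcgr shRNA, with a hairpin RNA aimed at the glucagon receptor gene of proximal tubule epithelial cells (PTEC). DKD stands in the titles of a series on diabetic kidney disease. Whether DKD_Vehicle kidneys carried a control hairpin is not clear, since the title and the genotype of that group differ. Not given in the sources used here are strain, age, sex, the means of inducing disease and the route of the hairpin. The labels tie no library to an animal of its own, and p-values therefore reflect the spread between libraries, which may in part be technical.

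Each library held 13997657 to 17107876 reads, recovered from the deposited FPKM (fragments per kilobase of gene length and library size). All 10 proximal tubule markers together reached 3106 to 5640 FPKM in every library. The library labelled DKD_Vehicle 20 stood apart: its 9 fat markers summed to 277 FPKM against 8.59 to 19.6 in the other 16 libraries, and its 6 urothelial markers to 176 FPKM against 0.760 to 11.7. Adipoq, a hormone of fat cells, was at 45.3 FPKM there, at 0 in 9 libraries and at no more than 2.43 FPKM elsewhere. The targeted gene, Gcgr, was at 18.3 to 23.8 FPKM in NC, 5.89 to 11.8 in DKD_Vehicle and 11 to 15.7 in the libraries labelled DKD_shRNA. Gcgr thus lay higher on average in the libraries labelled with the Gcgr hairpin than in those labelled DKD_Vehicle. The log2 difference was 0.40 ± 0.12 SE and did not pass (limma adjusted p = 0.413). This is not the direction of a knockdown, but whole-kidney values do not give the level in PTEC alone. Knockdown there was not tested, and the group with the Gcgr hairpin label is called by its label throughout.

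Reads of chromosome MT made up 8.26% ± 0.14 (SD, n = 4) of the recovered reads in NC, 8.51% ± 1.31 (SD, n = 6) in DKD_Vehicle and 9.02% ± 0.68 (SD, n = 7) in the libraries labelled DKD_shRNA. The NC libraries lay between 8.11% and 8.46%. DKD_Vehicle spanned 6.50% to 10.4%, and its lowest value belonged to DKD_Vehicle 20. Without that library its mean was 8.91% ± 0.96 (SD, n = 5). The libraries labelled DKD_shRNA spanned 8.23% to 9.93%, and the 3 groups overlapped. In whole kidney, fewer cells of a type and less RNA per cell cannot be told apart.

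**Figure D1:**
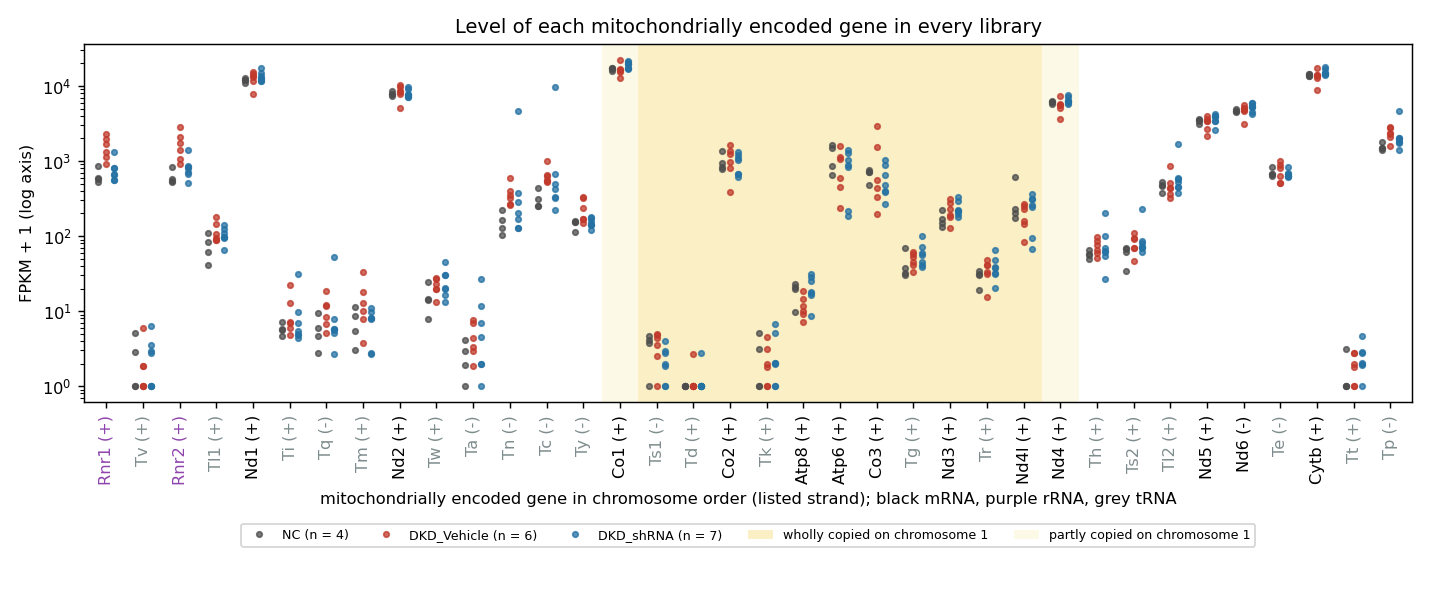
FPKM + 1 on a log axis for each of the 36 genes in chromosome order, with 1 point per library and groups side by side in colour. Shading marks genes between the first and last base aligned to copies on chromosome 1 (described below). Points of the 2 rRNA genes sit higher in DKD_Vehicle than in NC. mRNAs outside the shading lie between 2157 and 17678 FPKM. Those under the paler shading (partly copied) lie between 3595 and 21982 FPKM. Those under the darker shading (labelled wholly copied) lie between 6.24 and 2917 FPKM. The lowest of them, mt-Atp8, lies within the stretch but had no aligned copy of its own.

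Both rRNAs were higher in DKD_Vehicle than in NC. mt-Rnr1 (ENSMUSG00000064337, MT positions 70 to 1024, plus strand) encodes the 12S rRNA of the small ribosomal subunit. In NC it was at 526, 579, 602 and 850 FPKM in libraries 37, 38, 39 and 41. In DKD_Vehicle its lowest value was 921, its median 1495 and its highest 2320 FPKM, and all 6 libraries lay above all 4 of NC. The mean was 639 ± 144 FPKM (SD, n = 4) in NC and 1550 ± 527 (SD, n = 6) in DKD_Vehicle. The log2 difference was 1.23 ± 0.26 SE (limma adjusted p = 0.00892), a 2.35-fold rise on the log2(FPKM + 1) scale on which all differences are given.

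mt-Rnr2 (ENSMUSG00000064339, MT positions 1094 to 2675, plus strand), which encodes the 16S rRNA of the large subunit, moved alongside. NC held 544, 524, 582 and 822 FPKM in the same order. DKD_Vehicle ran from 911 through a median of 1577 to 2821 FPKM, again without overlap with NC. Its log2 difference was 1.35 ± 0.29 SE (limma adjusted p = 0.00943), or 2.55-fold. Without DKD_Vehicle 20, the lowest DKD_Vehicle library for both genes, the differences were 1.37 ± 0.25 SE and 1.5 ± 0.27 SE (limma adjusted p = 0.00367 and 0.00384). Depth was ample, with at least 7124 reads on mt-Rnr1 and 12205 on mt-Rnr2 in each library.

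The means of the libraries labelled DKD_shRNA lay between those of NC and DKD_Vehicle, at 765 FPKM for mt-Rnr1 and 826 for mt-Rnr2. Most of these libraries lay inside the NC range, which was 526 to 850 FPKM for mt-Rnr1 and 524 to 822 for mt-Rnr2. In the libraries labelled DKD_shRNA mt-Rnr1 ran from 550 through a median of 665 to 1328 FPKM, and mt-Rnr2 from 512 through 801 to 1421 FPKM. The highest of both was library 35; the other 6 libraries lay below all 6 of DKD_Vehicle for both genes, at no more than 802 FPKM for mt-Rnr1 and 846 for mt-Rnr2. The differences from DKD_Vehicle were -1.01 ± 0.23 SE for mt-Rnr1 and -0.97 ± 0.25 SE for mt-Rnr2, and neither passed (limma adjusted p = 0.183 and 0.270). Without DKD_Vehicle 20 the adjusted p were 0.0973 and 0.159. Against NC the same libraries differed by 0.22 ± 0.25 SE and 0.38 ± 0.28 SE (limma adjusted p = 0.718 and 0.535), with overlap. These comparisons share groups, so their values are only set side by side.

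**Figure D2:**
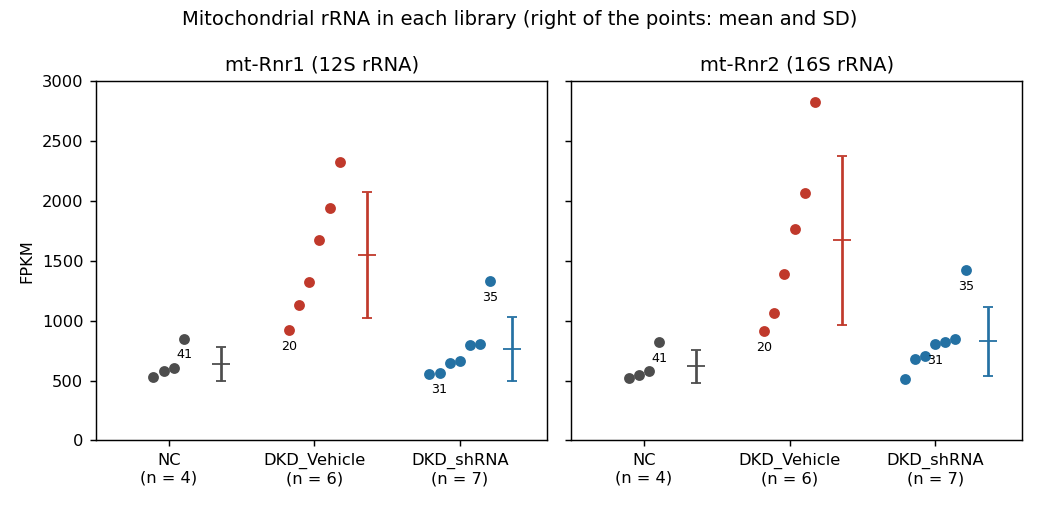
FPKM of the 12S and 16S rRNA in each library by group, with mean and SD to the right of the points and some libraries numbered. All 6 DKD_Vehicle libraries, from 911 FPKM upward, lie above the 4 of NC, and library 35 stands alone among those labelled DKD_shRNA.

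Within each library the rRNAs were read against the other mitochondrial RNAs. They took 1.66% to 2.48% of chromosome MT reads in NC, 3.33% to 7.23% in DKD_Vehicle and 1.6% to 4.22% in the libraries labelled DKD_shRNA. NC and DKD_Vehicle did not overlap in this share, and DKD_Vehicle 20, at 4.12% (95% Wilson interval 4.08% to 4.16%, counting error only), lay inside its group's range. Its total mitochondrial share was the lowest of all. The 12S to 16S ratio of FPKM stayed between 0.823 and 1.11 in 16 libraries and was 0.699 in DKD_shRNA 31. Reads of the genes listed with the biotype rRNA outside chromosome MT, chosen after their values were seen, ran from 0.0762% to 0.22% of all recovered reads in NC, from 0.0651% to 0.267% in DKD_Vehicle and from 0.0584% to 0.256% in the libraries labelled DKD_shRNA. The groups overlapped in that measure. The kit is described as an mRNA kit in the labels' protocols; how it carried over rRNA was not tested.

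The tRNA genes on either side of the 16S gene are shown because they are the cutting points that free the rRNAs. Capitals mark the tRNA (mt-Tv, valine, in the first and mt-Tl1, leucine, in the second), with 25 bases of each neighbour in lower case, from GENCODE M21 transcripts on GRCm38, plus strand. The first covers MT positions 1000 to 1118 and the second 2651 to 2775.
mt-Rnr1 to mt-Rnr2: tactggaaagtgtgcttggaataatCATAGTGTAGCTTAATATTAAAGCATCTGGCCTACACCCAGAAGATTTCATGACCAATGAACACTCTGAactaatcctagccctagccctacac
mt-Rnr2 to mt-Nd1: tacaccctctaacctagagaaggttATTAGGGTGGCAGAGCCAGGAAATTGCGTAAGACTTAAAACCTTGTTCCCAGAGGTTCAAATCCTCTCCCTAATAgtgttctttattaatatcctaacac

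No base lies between these genes in the annotation. The 2 tRNAs differed in level. mt-Tv, between the rRNA genes, held 0 to 6 reads in a library (0 to 5.33 FPKM) and was at 0 in 8 libraries. mt-Tl1, which follows the 16S gene, held 47 to 222 reads (40.1 to 176 FPKM). In NC mt-Tl1 was at 107, 40.1, 59.7 and 82.2 FPKM, and in DKD_Vehicle it ran from 88.4 through a median of 98.9 to 176 FPKM, with overlap. Its difference of 0.71 ± 0.26 SE did not pass (limma adjusted p = 0.105), and mt-Tv differed by -0.24 ± 0.63 SE, at counts too low to show a change.

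Of the 35 genes that passed the filter on low values, 2 (5.71%) were called higher in DKD_Vehicle than in NC, both of them rRNA genes, beside 3.58% of the 13279 genes tested. That share is near the background, and the count by itself says nothing particular about the mitochondrial genome. None was called lower, beside 3.91% of all genes; by limma 5 of the 35 (14.3%) had an unadjusted p under 0.05, beside 23.4% of all genes. The filter kept genes that reached an FPKM of 1 in 4 libraries, and mt-Td (aspartate), at 0 in 15 libraries, was the gene left out. Between the libraries labelled DKD_shRNA and DKD_Vehicle limma called 0 of the 35, beside 0% of all genes, and 4 had an unadjusted p under 0.05 (11.4%, beside 7.32% of all genes). Between the libraries labelled DKD_shRNA and NC it also called 0, beside 2.02% of all genes, and 3 had an unadjusted p under 0.05 (8.57%, beside 16.2%). Without DKD_shRNA 31 those counts were 8 of 35 against DKD_Vehicle (22.9%, beside 6.46% of all genes) and 0 of 35 against NC (beside 15.1%), still with 0 called.

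**Figure D3:**
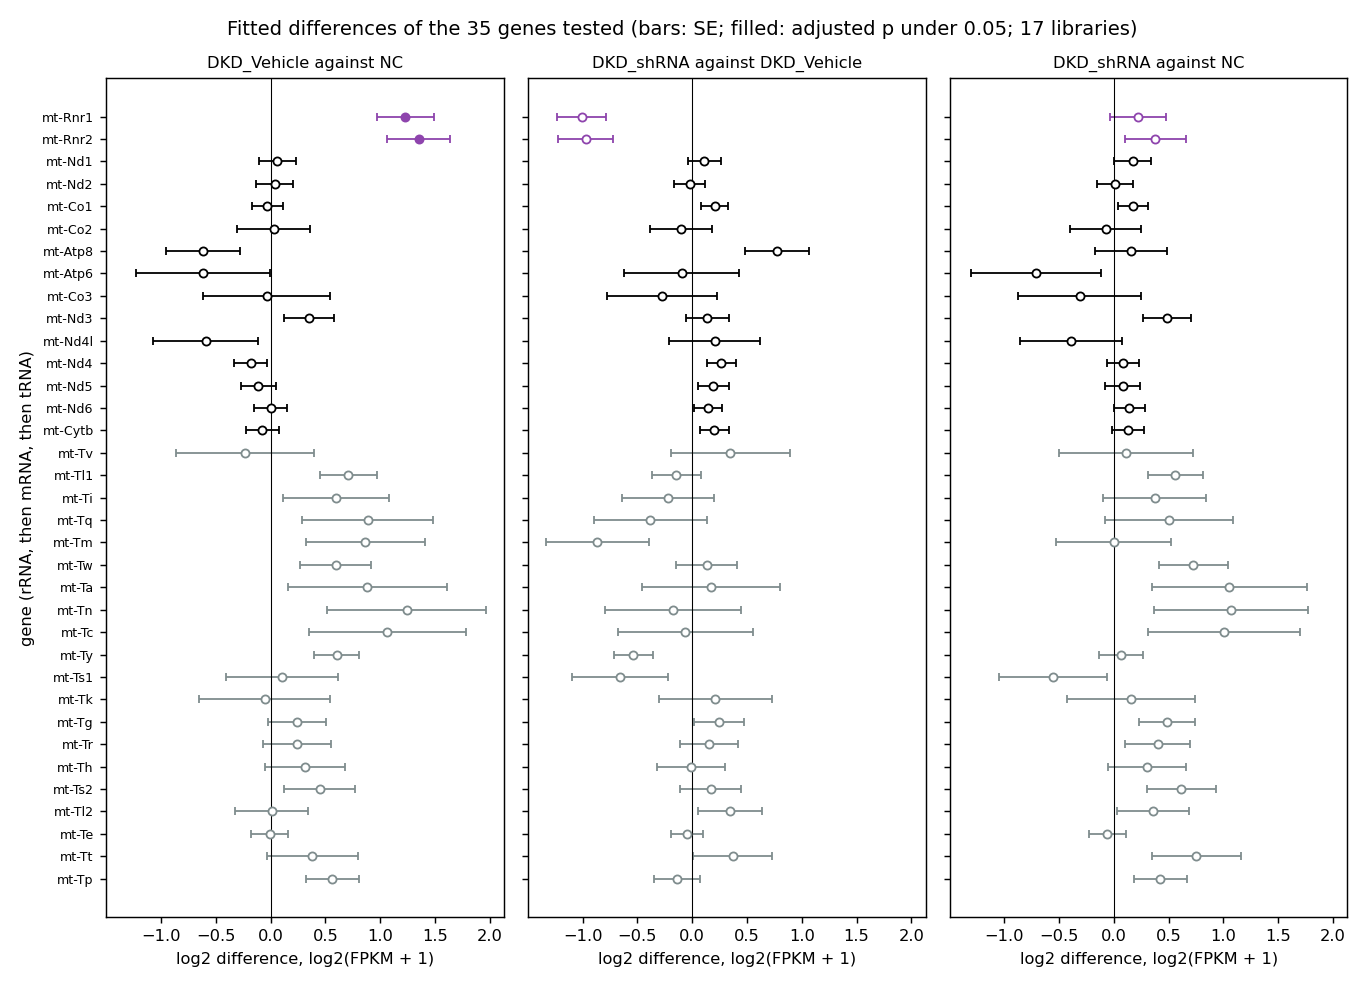
Fitted log2 differences with SE for the 35 genes tested in the 3 comparisons, rRNAs first, then mRNAs, then tRNAs; filled points have a limma adjusted p under 0.05. The filled points are the 2 rRNAs in DKD_Vehicle against NC, at 1.23 and 1.35, while most mRNAs sit near 0.

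limma called 0 of the 13 mRNAs in DKD_Vehicle against NC, and 0 had an unadjusted p under 0.05. A direct test of rRNA against mRNA differences was not made. The 7 mRNAs with bases outside a stretch that is copied on chromosome 1 (described below) gave the most precise values. Their differences lay between -0.18 and 0.06, with SE of 0.14 to 0.17, and between -0.07 and 0.19 without DKD_Vehicle 20. Across NC libraries these 7 varied little, with SD between 2.94% and 6.18% of the mean.

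Complex I, which takes electrons from NADH, holds 7 of the encoded proteins. mt-Nd1, the gene next to the rRNAs, was at 12146, 11858, 10880 and 12576 FPKM in NC and ran from 7808 through 13341 to 15423 FPKM in DKD_Vehicle. It ran from 11633 through 12878 to 17181 FPKM in the libraries labelled DKD_shRNA, so all groups overlapped. The difference of DKD_Vehicle from NC was 0.06 ± 0.17 SE (limma adjusted p = 0.867). mt-Nd1 starts at MT position 2751, directly after mt-Tl1.

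mt-Nd2, a proton-pumping core subunit, was at 7423 to 8594 FPKM in NC and 5060 to 10424 in DKD_Vehicle (0.04 ± 0.17 SE). mt-Nd4, another, was at 5810 to 6340 FPKM in NC and 3595 to 7342 in DKD_Vehicle (-0.18 ± 0.15 SE). mt-Nd5, also a core subunit, was at 3140 to 3588 FPKM in NC and 2157 to 3953 in DKD_Vehicle (-0.11 ± 0.16 SE). In each of these the NC values lay inside the DKD_Vehicle range.

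mt-Nd6 is the one mRNA listed on the minus strand. Its base composition mirrors that: 43.7% T and 5.97% C in the transcript, against 27.4% to 32.8% T and 22.1% to 29.97% C in the other 12. It was at 4912, 4599, 4564 and 4577 FPKM in NC and ran from 3106 through 4939 to 5594 FPKM in DKD_Vehicle, a difference of 0.00 ± 0.15 SE. Since the counting's use of strand is not stated in the sources used here, RNA from either strand over mt-Nd6, whose end overlaps mt-Nd5, cannot be told apart.

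mt-Cytb encodes cytochrome b, the one mitochondrially encoded subunit of complex III. NC held 13637, 14377, 13558 and 14212 FPKM, DKD_Vehicle ran from 8861 through 13807 to 17524, and the libraries labelled DKD_shRNA from 13877 through 14665 to 17678. The difference of DKD_Vehicle from NC was -0.08 ± 0.15 SE (limma adjusted p = 0.810). mt-Co1, the catalytic subunit of complex IV, had the highest mean of all, 17626 FPKM over the 17 libraries. It was at 15767, 16935, 17160 and 17162 FPKM in NC, ran from 12796 through 16312 to 21982 in DKD_Vehicle, and differed by -0.03 ± 0.14 SE.

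DKD_Vehicle 20 was the lowest of its group for all 13 mRNAs and both rRNAs, and the lowest of all 17 libraries for 11 of the mRNAs. It was also the library rich in fat and urothelial markers; the part of those tissues in its low mRNA was not tested. Means without it are given for mt-Nd1 and mt-Cytb of the 7 mRNAs with bases outside the copied stretch. They were 13616 ± 1428 and 14425 ± 1811 FPKM (SD, n = 5), beside 11866 ± 720 and 13946 ± 409 (SD, n = 4) in NC. No mRNA was called without DKD_Vehicle 20.

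In the libraries labelled DKD_shRNA 6 of the same 7 mRNAs had a positive difference from DKD_Vehicle, from 0.11 to 0.26, and mt-Nd2 was at -0.02. None passed, and the SE were 0.12 to 0.15. Without DKD_Vehicle 20 the differences of the 7 ran from -0.16 to 0.15, with 5 positive, and their median went from 0.19 to 0.08. mt-Atp8 had the smallest p of the mRNAs in that comparison (0.77 ± 0.29 SE, limma adjusted p = 0.533), on 24 to 96 reads a library.

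The other 6 mRNAs lie in a stretch of the mitochondrial genome that is also present on chromosome 1, and their values are uncertain for that reason. A BLAST search of GENCODE M21 transcripts kept only hits in a chromosome 1 block bounded by pseudogenes named beforehand. It gave 7 unprocessed pseudogenes that match parts of MT positions 6390 to 11042 (4653 bases from first to last aligned base). They lie together on the minus strand of chromosome 1 from 24611535 to 24616188. They are Gm29216, Gm28661, Gm10925, Gm28437, Gm28438, Gm10222 and Gm28439, in the order of mt-Co1, mt-Co2, mt-Atp6, mt-Co3, mt-Nd3, mt-Nd4l and mt-Nd4. Bases between the pairs were not aligned, and mt-Atp8 had no pair of its own. 5 of the 7 pairs were 100% identical over the aligned bases. The other two differed at a single base each, A1066T between mt-Co1 and Gm29216 and T3C between mt-Nd3 and Gm28438, counted from 1 at the start of the mitochondrial gene, with the mitochondrial base first.

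These stretches are shown because they are the letters by which a read could be placed; capitals mark the differing base. mt-Co1 is given from MT 6390 to 6423 (plus strand) and mt-Nd3 from 9459 to 9491 (plus strand), each above its copy on the minus strand of chromosome 1 (24616155 to 24616188 and 24613087 to 24613119), all on GRCm38 from GENCODE M21.
mt-Co1: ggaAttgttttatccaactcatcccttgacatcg
Gm29216: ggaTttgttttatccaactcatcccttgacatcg
mt-Nd3: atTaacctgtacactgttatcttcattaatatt
Gm28438: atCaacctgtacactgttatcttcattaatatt
The first 60 bases of mt-Co2 (MT 7013 to 7072, plus strand) and of Gm28661 (chromosome 1, 24615506 to 24615565, minus strand) show the identity of the other pairs.
mt-Co2: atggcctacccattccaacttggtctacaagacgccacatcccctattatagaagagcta
Gm28661: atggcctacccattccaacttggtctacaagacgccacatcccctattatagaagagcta

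The level of an mRNA went with its place in this stretch. In all 17 libraries each of the 7 mRNAs with bases outside it exceeded each of the 6 wholly inside it. The former were at 2157 to 21982 FPKM and the latter at 6.24 to 2917 FPKM. mt-Co1, of which 31.3% aligned to the copy, and mt-Nd4, with 63.6%, were among the high ones. Adding the copy's reads to those of its gene left this order unchanged in all 17 libraries. How the authors' counting treated reads with more than one place of origin is not stated in the sources used here.

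Spread between replicates was also wider inside the stretch. mt-Co3, a core subunit of complex IV, was at 713, 477, 723 and 766 FPKM in NC and ran from 199 through 494 to 2917 FPKM in DKD_Vehicle. mt-Atp6, a membrane subunit of ATP synthase, was at 1468, 853, 659 and 1631 FPKM in NC and ran from 233 through 834 to 1567 FPKM in DKD_Vehicle. mt-Co2, which holds a copper site of complex IV, was at 783, 1345, 826 and 939 FPKM in NC and 388 to 1615 FPKM in DKD_Vehicle. Against NC they differed by -0.04 ± 0.58 SE, -0.62 ± 0.61 SE and 0.03 ± 0.33 SE, with wide errors for the first pair.

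mt-Nd3 and mt-Nd4l, small complex I subunits, were at 130 to 223 and 172 to 608 FPKM in NC and at 126 to 316 and 82.7 to 266 FPKM in DKD_Vehicle (0.35 ± 0.23 SE and -0.59 ± 0.48 SE). mt-Nd4l overlaps mt-Nd4, and mt-Atp8 overlaps mt-Atp6, so their reads could be divided in more than one way. mt-Atp8, the other ATP synthase subunit, was at 8.65 to 21.9 FPKM in NC and 6.24 to 17.8 FPKM in DKD_Vehicle (-0.62 ± 0.34 SE).

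The copies themselves were listed with 17.2 to 1019 FPKM. Gm28661, the copy of mt-Co2, was the highest, at 572, 582, 550 and 1019 FPKM in NC, from 307 through 599 to 916 in DKD_Vehicle, and from 449 through 739 to 832 in the libraries labelled DKD_shRNA. limma called 0 of the 7 copies in each comparison, and 1 of 7 had an unadjusted p under 0.05 in each. Over all genes the share under 0.05 was 23.4% in DKD_Vehicle against NC. It was 7.32% in DKD_shRNA against DKD_Vehicle and 16.2% in DKD_shRNA against NC. In DKD_Vehicle against NC the copy was Gm28439, that of mt-Nd4 (-0.60 ± 0.22 SE, limma adjusted p = 0.0992). It passed without DKD_Vehicle 19 (-0.74, limma adjusted p = 0.0207), beside 676 of 13234 genes called lower in that fit.

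Mitochondrial tRNAs carry amino acids to the mitochondrial ribosome. The 21 genes are 59 to 75 bases long, and how an mRNA kit captures such short RNAs was not tested. Over the 17 libraries mt-Tp (proline) averaged 2087 FPKM, mt-Tc (cysteine) 1013, mt-Te (glutamate) 699, mt-Tl2 (leucine) 553 and mt-Tn (asparagine) 513 FPKM. The order below mt-Tp rests on the library labelled DKD_shRNA 31. Without it the means were 1929 FPKM for mt-Tp, 698 for mt-Te, 481 for mt-Tl2, 477 for mt-Tc and 255 for mt-Tn. All of these but mt-Tl2 are listed on the minus strand. Besides mt-Td, the lowest levels were those of mt-Tv, mt-Tt (threonine), mt-Tk (lysine) and mt-Ts1 (serine), none of them above 6 reads in any library.

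The asparagine, cysteine, tyrosine and proline tRNAs are shown because values in DKD_Vehicle or in 1 library stood apart there. Capitals mark the anticodon, and each is read 5′ to 3′ from the minus strand of GRCm38 (GENCODE M21). The first 3 form a cluster before mt-Co1, at MT 5089 to 5159, 5192 to 5257 and 5260 to 5326, with the origin of light-strand replication in the gap between mt-Tn and mt-Tc. mt-Tp lies at MT 15356 to 15422.
mt-Tn: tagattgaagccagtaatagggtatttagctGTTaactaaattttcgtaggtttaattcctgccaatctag
mt-Tc: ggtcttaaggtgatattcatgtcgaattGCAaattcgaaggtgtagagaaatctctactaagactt
mt-Ty: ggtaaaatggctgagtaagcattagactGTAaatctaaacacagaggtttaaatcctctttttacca
mt-Tp: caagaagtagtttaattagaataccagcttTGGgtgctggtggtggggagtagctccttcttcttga

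mt-Tn was at 163, 103, 125 and 221 FPKM in NC and ran from 256 through 336 to 594 in DKD_Vehicle, with no overlap. mt-Tc was at 309, 249, 252 and 438 FPKM in NC and ran from 522 through 598 to 1013 in DKD_Vehicle, again with no overlap. In all, 4 of the 35 genes (11.4%) had DKD_Vehicle wholly above NC, the other two being the rRNAs, beside 4.71% of all genes tested. None had it wholly below, beside 5.41% of all genes. The differences were 1.24 ± 0.72 SE for mt-Tn and 1.07 ± 0.72 SE for mt-Tc, and neither passed in the fit of all 17 libraries (limma adjusted p = 0.316 and 0.395).

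The large SE came with 1 library of the third group. DKD_shRNA 31 held 4656 FPKM of mt-Tn and 9598 FPKM of mt-Tc, where the other 6 libraries labelled DKD_shRNA held 126 to 378 and 223 to 669 FPKM. In reads, the pair together took 15716 in that library and 371 to 1835 in the other 16. The ratio of mt-Tc to mt-Tn was 2.06 in DKD_shRNA 31, inside the range of 1.59 to 2.51 over the 17 libraries, so both were raised to a like degree. mt-Tp (4611 FPKM), mt-Tl2 (1708) and mt-Tq (glutamine, 51.8) were also at their highest there. mt-Ty, next to mt-Tc, was not: at 172 FPKM it lay inside the 119 to 178 FPKM of its group. DKD_shRNA 31 was the highest of all libraries for 14 of the 21 tRNA genes, for 3 of the 13 mRNAs and for neither rRNA.

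**Figure D4:**
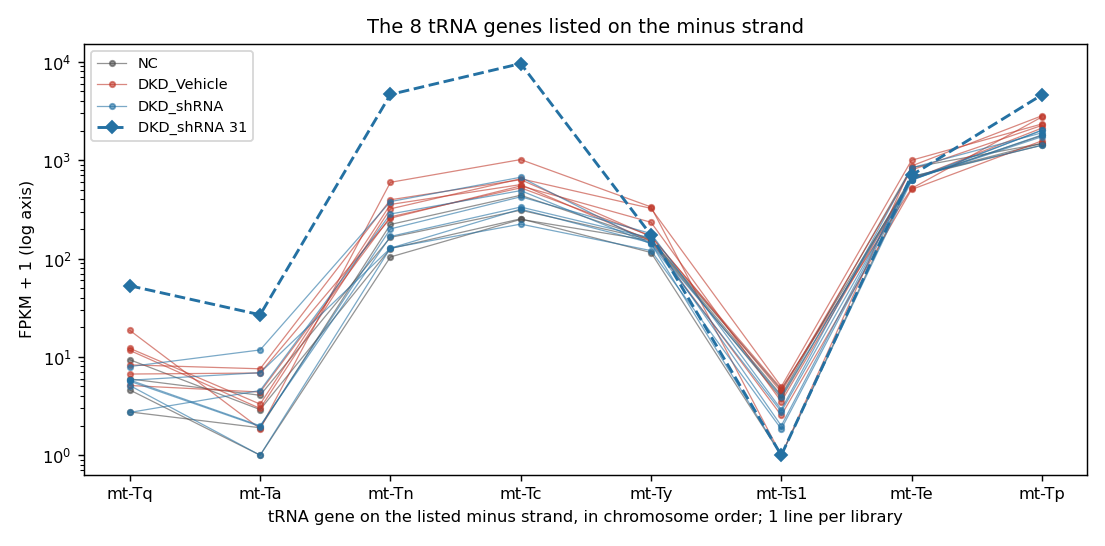
FPKM + 1 on a log axis for the 8 tRNA genes listed on the minus strand, with 1 line per library; the dashed line with diamonds is DKD_shRNA 31. That library leaves the rest at mt-Tq, mt-Ta, mt-Tn, mt-Tc and mt-Tp, peaking at 9598 FPKM for mt-Tc, and rejoins them at mt-Ty, mt-Ts1 and mt-Te.

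Since the groups share an estimate of spread, that library bore on the comparison of the other two. Without it, limma called mt-Tc (adjusted p = 0.0219), mt-Tn (0.0242) and mt-Tp (0.0322) higher in DKD_Vehicle than in NC, besides the rRNAs. That made 5 of 35 (14.3%), beside 3.72% of all genes. DKD_shRNA 31 stood apart by its own high values of mt-Tc, mt-Tn and mt-Tp, so calls made without it give no separate support. With only NC and DKD_Vehicle fitted, mt-Tc and mt-Tn were called (adjusted p = 0.0179 and 0.0223), 4 of 35 (11.4%) beside 2.69%. The differences themselves were the same in these fits.

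mt-Tp was at 1475, 1481, 1417 and 1781 FPKM in NC and ran from 1571 through 2294 to 2825 in DKD_Vehicle. Its lowest DKD_Vehicle library was number 20. mt-Ty was at 155, 151, 114 and 156 FPKM in NC and ran from 150 through 201 to 334 in DKD_Vehicle, with number 20 again at the bottom. Without DKD_Vehicle 20 the groups no longer overlapped for either gene. Leaving out the lowest library of the higher group can only lessen overlap, and the share over all genes without it was not counted. In that fit mt-Ty passed (0.71 ± 0.20 SE, limma adjusted p = 0.0373), giving 3 of 35 (8.57%) beside 4.16% of all genes. Leaving out DKD_Vehicle 20 and DKD_shRNA 31 together gave 6 of 35 (17.1%), the rRNAs with mt-Tc, mt-Tn, mt-Tp and mt-Ty, all higher, beside 4.55% of all genes. Both libraries stood apart for some of these same genes, so that count gives no separate support either.

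Other tRNAs carried no such split. mt-Te was at 640 to 838 FPKM in NC and 502 to 997 in DKD_Vehicle (-0.01 ± 0.17 SE). mt-Tl2 was at 371 to 523 and 317 to 856 FPKM (0.01 ± 0.34 SE). Of the 20 tRNAs tested, 17 had a positive difference in DKD_Vehicle against NC, with a median of 0.51, beside a median of 0.01 over all genes tested, though neighbouring tRNAs share precursors and are not independent. The 20 include mt-Tv, mt-Tk and mt-Ts1, at no more than 6 reads in any library, and others on few reads. Signs and medians over the 20 therefore give no result about tRNAs as a class. In the libraries labelled DKD_shRNA against DKD_Vehicle the median was -0.03, with 9 of 20 positive. Without DKD_shRNA 31 it was -0.24, with 5 of 20 positive, beside a median of -0.003 over all genes. There 5 of 20 had an unadjusted p under 0.05 (beside 6.46% of all genes), all 5 among the 8 listed on the minus strand. Without DKD_Vehicle 20 as well the median was -0.30, with 3 of 20 positive. None was called in these fits.

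The serine and histidine tRNAs mt-Ts2 and mt-Th, which lie with mt-Tl2 between mt-Nd4 and mt-Nd5, averaged 57.3 ± 16.2 and 55.9 ± 6.40 FPKM (SD, n = 4) in NC. In DKD_Vehicle they averaged 78.7 ± 23.0 and 71.2 ± 17 FPKM (SD, n = 6), differences of 0.45 ± 0.32 SE and 0.32 ± 0.36 SE. mt-Tg (glycine) and mt-Tr (arginine), inside the copied stretch, differed by 0.24 ± 0.27 SE and 0.24 ± 0.31 SE. mt-Ti (isoleucine), mt-Tq, mt-Tm (methionine), mt-Tw (tryptophan) and mt-Ta (alanine), on 0 to 60 reads a library, differed by 0.59 to 0.89 with SE of 0.33 to 0.73. None of these 9 passed.

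The nuclear lists covered genes that copy, transcribe, process and translate the mitochondrial genome, biogenesis genes and subunits of the respiratory complexes. Of 259 tested genes in 12 lists, limma called 3 (1.16%, beside 3.58% of all genes) higher in DKD_Vehicle than in NC. None was called lower, beside 3.91% of all genes. By unadjusted p under 0.05 there were 29 (11.2%, beside 23.4% of all genes), and 72 (27.8%, beside 25.3%) without DKD_Vehicle 20. All 3 called were proteins of the large mitochondrial ribosomal subunit, out of 77 mitoribosome genes tested. Mrpl33 was at 2.31 to 2.82 FPKM in NC and 3.48 to 4.36 in DKD_Vehicle (0.41 ± 0.07 SE, limma adjusted p = 0.00302). Mrpl23 was at 4.83 to 6.02 and 6.19 to 8.86 FPKM (0.42 ± 0.11 SE, limma adjusted p = 0.0268), and Mrpl19 at 2.72 to 3.26 and 3.31 to 4.55 FPKM (0.28 ± 0.08 SE, limma adjusted p = 0.0484). The median over the 77 was 0.09, beside 0.01 over all genes. The 3 of 77 are close to the 3.58% of all genes and are no result about the ribosome as a whole. Without DKD_Vehicle 20 limma called 8 of the 259 (3.09%, beside 4.16% of all genes), which added Mrpl36, Mrps17, Mrps35, Lrpprc and Cox5a. Without NC 38, NC 39, DKD_Vehicle 4 or DKD_Vehicle 6 it called 1.

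Among 9 transcription genes none passed. Polrmt, the mitochondrial RNA polymerase, differed by -0.19 ± 0.07 SE (limma adjusted p = 0.0942) and Mterf4, which acts in ribosome assembly, by 0.20 ± 0.07 SE (0.113). Of 28 tested genes for RNA processing and stability none passed either. Pnpt1, an RNA-degrading exoribonuclease, differed by 0.24 ± 0.07 SE (limma adjusted p = 0.0545), and Lrpprc, which stabilises mitochondrial mRNAs, by 0.26 ± 0.09 SE (0.0756). None of 15 genes for replication of the genome and its nucleotide supply passed; Polg2, an accessory subunit of the DNA polymerase, differed by -0.36 ± 0.12 SE (0.0875). None of 28 genes that charge or modify tRNAs passed, nor any of 11 translation and insertion factors. Of 17 biogenesis and content genes none passed; Ppargc1a, a coactivator that drives mitochondrial biogenesis, differed by -0.30 ± 0.13 SE (0.156). By unadjusted p under 0.05 the counts in these 6 lists were 4, 5, 1, 5, 1 and 1 in the order given, to be read against the 23.4% of all genes, and 3, 9, 2, 3, 1 and 3 without DKD_Vehicle 20.

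Nuclear subunits of the complexes that hold mitochondrially encoded partners had medians slightly above 0 in DKD_Vehicle against NC. The median was 0.15 for complex I (36 genes), 0.14 for complex III (9), 0.19 for complex IV (10) and 0.12 for ATP synthase (15). For the 7 mitochondrial mRNAs with bases outside the copied stretch it was -0.03 (0.04 without DKD_Vehicle 20). None of these nuclear subunits was called, beside 3.58% of all genes called higher and 3.91% lower. An unadjusted p under 0.05 was reached by 3 (beside 23.4% of all genes), 2 of complex I and 1 of complex IV. Without DKD_Vehicle 20 that count was 15 of 36 for complex I, 4 of 9 for complex III and 4 of 10 for complex IV. It was 4 of 15 for ATP synthase, all beside 25.3% of all genes in that fit. The medians were then 0.22, 0.17, 0.27 and 0.19, and Cox5a was called, beside 4.16% of all genes called higher. Cox5a of complex IV (0.21 ± 0.08 SE, limma adjusted p = 0.133) and Ndufa6 of complex I (0.30 ± 0.12 SE, 0.136) had the smallest p. Complex II, which has no mitochondrially encoded subunit, had a median of 0.02 over its 4 genes.

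In the libraries labelled DKD_shRNA against DKD_Vehicle limma called 0 of the 259, beside 0% of all genes. By limma 2 had an unadjusted p under 0.05 (0.772%, beside 7.32% of all genes). These were Tfb1m, a methyltransferase of the 12S rRNA (-0.24 ± 0.08 SE, limma adjusted p = 0.447), and Taco1, an activator of mt-Co1 translation (0.13 ± 0.06 SE, 0.640). Against NC the same libraries had 1 call of 259 (0.386%, beside 2.02% of all genes), Mrpl33 (0.31 ± 0.07 SE, limma adjusted p = 0.0275). That call was lost without NC 37, NC 38, NC 39 or DKD_shRNA 35.

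**Figure D5:**
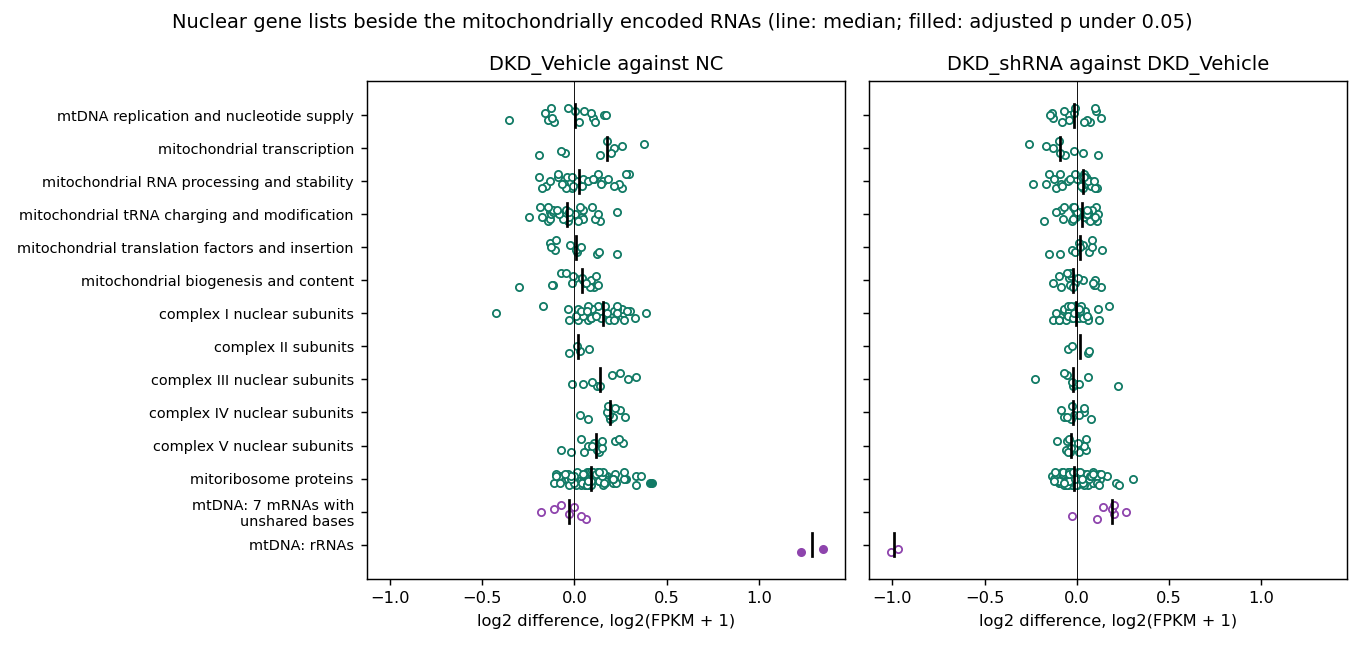
Log2 differences of each gene in the 12 nuclear lists, with the mitochondrial mRNAs that have bases outside the copied stretch and the rRNAs below. Lines are medians and filled points have a limma adjusted p under 0.05. On the left the rRNAs stand at 1.23 and 1.35 while list medians lie between -0.04 and 0.19.

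Tubule markers moved in the same comparison, and their part in the mitochondrial values was not tested. In DKD_Vehicle against NC limma called 4 of 10 proximal tubule and 3 of 6 thick ascending limb markers lower. So were 1 of 4 distal convoluted tubule, 4 of 5 principal cell and 5 of 6 intercalated cell markers, beside 3.91% of all genes. limma called 2 of 6 leukocyte markers (3 tested) higher, beside 3.58% of all genes, and no podocyte, red blood cell, fat or urothelial marker. The proximal tubule markers summed to 4682 to 5640 FPKM in NC, 3106 to 4599 in DKD_Vehicle and 3512 to 4431 in the libraries labelled DKD_shRNA.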

How the data were processed

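The authors deposited 1 table of FPKM per gene and library, with gene lengths, biotypes and coordinates, per the file headers. Not given in the sources used here are the aligner, the counter and the handling of strand and of reads with several origins. GRCm38 and mm10 are named per the submitters' processing notes, and per the labels' protocols RNA came from a Trizol extraction and went into a SMARTer mRNA-Seq kit. No column was left unmapped (0).

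FPKM times gene length gave whole multiples of 1 step in 100% of low values (within 0.05 of a step, up to 200 steps). The library size behind the deposited FPKM was 0.949 to 1.15 times the reads so recovered, highest for DKD_Vehicle 20. One incomplete line was left out.

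Genes that reached an FPKM of 1 in 4 libraries (13279) were fitted as log2(FPKM + 1), with a mean per group over all 17 libraries, by limma-trend (limma 3.58.1, R 4.3.3), two-sided, with Benjamini-Hochberg adjustment over all genes tested and a threshold of 0.05. The fit was tested on simulated data. The log2 scale understates changes of low genes. Copies were aligned with blastn 2.17.0 among GENCODE M21 transcripts, keeping only hits in a chromosome 1 block set beforehand.

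Named are all mRNAs and rRNAs, the tRNAs that passed the filter, the chromosome 1 copies, Gcgr, and of each nuclear list up to 4 genes that passed or up to 2 with the smallest p. The members and lists were chosen with earlier results of these data known.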

Additional observations from a re-analysis of the deposited data

Results flagged for a closer look

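Single libraries stood apart from the rest of their group, by Dixon's test at its 95% critical value, in 21 of 105 combinations of gene and group. Its nominal rate of about 1 in 20 holds for independent, normally spread values. These genes share precursors and some hold few reads, so the count cannot be weighed against that rate. DKD_shRNA 31 accounted for 9 of the 21, all tRNA genes: mt-Tc (9598 FPKM), mt-Tn (4656), mt-Tp (4611), mt-Tl2 (1708), mt-Ts2 (231), mt-Th (203), mt-Tq (51.8), mt-Ti (30.2) and mt-Ta (25.8). For mt-Tc the other 6 libraries of that label held 223 to 669 FPKM.

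DKD_shRNA 35 was high for both rRNAs, with 1328 FPKM of mt-Rnr1 and 1421 of mt-Rnr2. DKD_Vehicle 20 was low for mt-Nd6, at 3106 FPKM against 4702 to 5594 in the rest of its group. DKD_Vehicle 6 was high for mt-Tc (1013 FPKM), DKD_Vehicle 4 for mt-Tl2 (856), DKD_Vehicle 1 for mt-Tv (5.02) and DKD_shRNA 32 for mt-Te (834).

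In NC, library 37 was low for mt-Co1 (15767 FPKM) and high for mt-Nd6 (4912) and mt-Tt (2.11, the others at 0). NC 38 was high for mt-Nd4l, at 608 FPKM against 172 to 228, and NC 39 was low for mt-Ty, at 114 against 151 to 156.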

How the results depend on the processing

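Over 27 alternatives (pseudocount, filters, scalings, a count-based limma voom fit of recovered reads, array weights, each library left out, copies summed with their genes), mt-Rnr1 and mt-Rnr2 were called higher in DKD_Vehicle than in NC in all 27, with differences of 1.10 to 1.38 and 1.18 to 1.5 and adjusted p of 0.00112 to 0.0383 and 0.0016 to 0.0403. The number of mitochondrially encoded genes called there was 2, and it was 4 with array weights, 4 with only both groups fitted, 2 to 5 with a library left out (5 without DKD_shRNA 31) and 6 without both DKD_Vehicle 20 and DKD_shRNA 31. It was 0 in the other comparisons under each alternative. The added genes were mt-Tc, mt-Tn, mt-Tp and mt-Ty, each in 3 of 27; no called gene reversed. Nuclear list genes called were 3, against 1 without a filter on low values, 5 after rescaling to the same nuclear total, 18 with array weights (16 higher, 2 lower), 10 without both libraries and 1 to 8 with a library left out (8 without DKD_Vehicle 20). Array weights raised calls over all 13279 genes to 1061 higher and 1026 lower, beside 475 and 519 in the main fit. After rescaling those counts were 436 and 429, and without a filter 265 and 332 of 31784 genes. Against NC, the libraries labelled DKD_shRNA had 1 nuclear list call, against 0 without a filter, 0 with the filter set to a mean FPKM of 5, 5 with array weights, 2 with only both groups fitted and 0 to 2 with a library left out. Over all genes array weights gave 624 higher and 446 lower in that comparison, beside 189 and 79 in the main fit. Gm28439 was called lower in DKD_Vehicle with array weights (1 copy called) and without DKD_Vehicle 19, so that 0 to 1 copies were called with a library left out. The causes were not tested. No paired analysis was possible because the groups share no replicate numbers. tRNA genes under 10 reads a library give no usable difference.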
